A study of Schizosaccharomyces pombe with 16 samples.

Results

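The 49 small subunit ribosomal protein genes of Schizosaccharomyces pombe analysed here encode proteins of the 40S ribosomal subunit. They were taken by systematic name from a fixed list, and all 49 were found among the 7018 transcripts of each of the 2 deposited tables. The study asked which RNAs associate with Zfs1, an RNA-binding protein with tandem CCCH zinc fingers, and how RNA levels change when zfs1 is deleted. In the RNA immunoprecipitation (RIP-Seq) table, Zfs1-TAP cells carried a TAP-tagged zfs1 gene (zfs1-TAP::kanMX6, h-), and the mock-control GFP-TAP cells expressed GFP-TAP from the nmt1 promoter at the leu1 locus (leu1Δ, ura4-D18, h+). Each strain gave an immunoprecipitate (IP) and the total RNA of its extract (input) in each of 3 experiments. In the RNA-Seq table, zfs1Δ cells were set against wild-type (WT) cells, with 2 experiments each. All cultures grew exponentially in minimal EMM medium at 25°C with the nitrogen source present, and the methods describe the experiments as biological repeats. The tagged strains differed from each other in mating type, promoter and auxotrophic background as well as in the tagged protein, and these cannot be told apart here.

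The 40S subunit binds mRNA, scans to the start codon and holds the decoding centre, in which the codon and anticodon pair. Its proteins are needed in equal numbers, and fission yeast encodes most of them by a pair of near-identical genes. In this yeast, ribosomal protein genes lack a usual TATA box. Most instead carry the HomolD box close to the start, often with a HomolE box upstream of it. Zfs1 belongs to the tristetraprolin family, whose members bind an AU-rich nonamer in mRNA and destabilise the bound mRNAs.

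The 2 sequence features that frame the comparisons are the promoter boxes, which most of the 49 genes share, and the Zfs1 nonamer, which nearly all of them lack. In the 250 bases before the annotated start, HomolD (CAGTCACA, either strand) was found in 31 of 49 genes (63.3%), against 2.60% of 5144 protein-coding genes. HomolE (AGGGTAGGG, either strand) was found in 21 (42.9%), against 1.48% of protein-coding genes. Of the 49, 11 held both boxes and 8 held neither. The 32 HomolD matches began 43 to 85 bases before the start (median 51.5), and the 21 HomolE matches began 60 to 84 bases before it (median 69). Windows around the box are shown for genes to which the results below return, in the sense of the gene and with the box in capitals. The sequences are from the RefSeq assembly ASM294v3.
rps3, chrII:4239363-4239410, minus strand, HomolD: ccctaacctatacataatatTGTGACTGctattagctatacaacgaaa
rps601, chrI:187608-187655, minus strand, HomolD: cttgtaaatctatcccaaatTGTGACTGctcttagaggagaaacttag
rps2202, chrI:1512413-1512460, minus strand, HomolD: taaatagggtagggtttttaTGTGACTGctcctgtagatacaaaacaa
rps1201, chrIII:553093-553140, plus strand, HomolD: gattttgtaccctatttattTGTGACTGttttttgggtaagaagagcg
rps1202, chrII:499084-499132, minus strand, HomolE: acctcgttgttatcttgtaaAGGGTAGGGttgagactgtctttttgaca
In rps3, rps601, rps2202 and rps1201 the HomolD box stands in the reverse orientation, as TGTGACTG. The window of rps2202 also holds a HomolE match, in lower case, upstream of HomolD. No HomolD match was found in the 250 bases of rps1202. The rps12 pair, rps1201 and rps1202, thus differs in both boxes.

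The nonamer in its DNA letters, TTATTTATT, was present in the annotated transcript of 1 of 49 genes (2.04%), rps1702, which encodes eS17. It was present in 577 of 5145 protein-coding transcripts (11.2%). The shorter core TATTTA, chosen after the values had been seen, was present in 9 of the 49 (18.4%), against 71.6% of protein-coding transcripts. The transcripts of the 49 genes were also shorter, with a median of 594 nt against 1674 nt, which bears on any such share. The nonamer of rps1702, the only match among the 49, is shown with its nearest bases, the match in capitals.
rps1702, 3′UTR, transcript bases 460 to 468: actgtcacggTTATTTATTtttgtgatgc

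The deposited normalised values summed to between 8.04e+06 and 1.57e+07 per RIP-Seq library, except 7.29e+07 for the Zfs1-TAP input of experiment 1, and to between 4.24e+07 and 4.79e+07 per RNA-Seq library. Ribosomal RNA took 72.1% of the values in the Zfs1-TAP input of experiment 1 and 34.7% in the GFP-TAP input of experiment 1, and at most 5.87% in the other libraries. For this reason each library was centred on its median transcript on the log2(value + 1) scale before comparison, and every log2 difference below is relative to that median. As a check of the labels, leu1 had values of 5356 to 11183 in the Zfs1-TAP inputs, against 430 to 478 in the GFP-TAP inputs. The mating-type gene mat1-Mc was listed at 0 in all 6 GFP-TAP libraries and at 309 or more in all 6 Zfs1-TAP libraries.

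The 49 transcripts were abundant in every input. Scaled to a total of 1000000 non-rRNA values per library and given per kb of transcript, their mean levels in the Zfs1-TAP inputs ran between 362 for rps1401 (uS11, a protein of the platform) and 3333 for rps102 (eS1), with a median of 1448. In the GFP-TAP inputs they ran between 368 for rps1401 and 2866 for rps102, with a median of 1370. After rps102 at 3333 ± 453 (SD, n = 3), the next levels in the Zfs1-TAP inputs were 3041 ± 833 for rps20, 2676 ± 472 for rps21 and 2675 ± 502 for rps7, so neighbours at the top of the order did not differ beyond their spread. At the lower end, rps2601 had 523 ± 99.3, rps2202 had 430 ± 25.0 and rps1401 had 362 ± 46.8. Copies of the same protein could stand far apart. In the Zfs1-TAP inputs, rps2201 had 2379 ± 655 and rps2202 had 430 ± 25.0, and rps1402 had 1467 ± 212 and rps1401 had 362 ± 46.8.

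As a share of all non-rRNA values, the 49 transcripts took 1.06%, 1.12% and 1.04% of the Zfs1 IPs, against 4.10%, 5.16% and 5.27% of the Zfs1-TAP inputs. They took 1.47%, 3.39% and 3.63% of the GFP IPs, against 3.66%, 4.60% and 4.82% of the GFP-TAP inputs. In RNA-Seq they took 3.94% and 3.87% in zfs1Δ, against 4.24% and 4.32% in WT. There 10 of the 49 were listed at 0, so these shares cover fewer transcripts than those of the inputs. The share was below that of its own input in every IP, and in RNA-Seq the zfs1Δ values lay below both WT values.

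**Figure D1:**
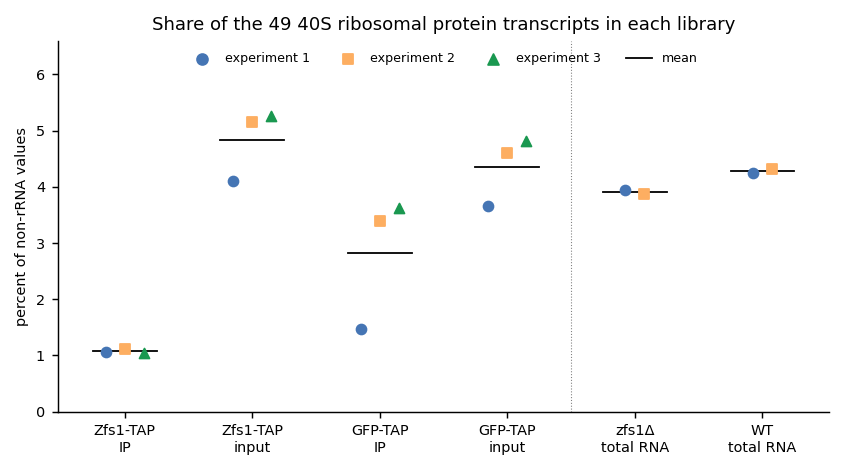
Share of the 49 40S ribosomal protein transcripts in each library, as a percent of all values outside rRNA (vertical axis), by group; points are libraries, with shape and colour for the experiment, and lines are group means. The Zfs1 IPs lie between 1.04% and 1.12%, below all other libraries, and the GFP IP of experiment 1 (1.47%) stands apart from the GFP IPs of experiments 2 and 3 (3.39% and 3.63%). In the total RNA libraries of zfs1Δ and WT, 10 of the 49 were listed at 0.

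The first comparison asked which transcripts were over- or under-represented in the Zfs1 IP relative to its input. All but 1 of the 49 were lower in the IP. By limma with Benjamini-Hochberg adjustment over 5929 transcripts, 48 were lower at an adjusted p under 0.05 and 0 were higher, while 35.3% of all transcripts tested were lower and 28.4% were higher. The median log2 IP/input of the 49 was -2.19, a fold of 0.219, with quartiles of -2.40 and -2.02. The median of all transcripts tested was -0.22. By experiment, the median of the 49 was -1.87, -2.28 and -2.65, and 48 of 49 lay below 0 each time. The 81 large subunit genes measured beside them had a median of -2.20, and 79 of 81 were lower. Among 37 genes for 40S maturation factors, which assemble the subunit but are not part of it, the median was -0.57, and 18 were lower and 2 higher. The median was thus of like size for both subunits and nearer to 0 for the assembly factors.

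The 3 lowest transcripts encode small proteins of the subunit. rps29 (SPBC1685.09), for uS14, had 477, 552 and 498 in the Zfs1 IPs, against 7718, 7791 and 6537 in the inputs. Its log2 IP/input was -3.62 (SE 0.30, n = 3, adjusted p = 9.2e-05 by limma). rps27 (SPBC1685.10), for eS27, had 680, 1531 and 1031 in the IPs, against 16225, 9830 and 9810 in the inputs, with a log2 IP/input of -3.28 (SE 0.17). In both genes every IP value was below every input value. rps21 (SPBC18E5.06), for eS21, had 1133, 1369 and 1086 in the IPs, against 17539, 11042 and 9896 in the inputs, a log2 IP/input of -3.16 (SE 0.22).

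The 3 highest transcripts were rps601, rps2202 and rps1202. rps601 (SPAC13G6.07c) encodes eS6, the ribosomal protein phosphorylated downstream of TOR signalling, and has the longest 3′UTR of the 49 (530 nt). It had 5550, 7054 and 4656 in the IPs, against 29550, 13667 and 12971 in the inputs, a log2 IP/input of -1.39 (SE 0.22, adjusted p = 0.0013). rps2202 (SPAC5D6.01), for uS8, had 844, 2164 and 1609 in the IPs, against 5371, 2550 and 2537 in the inputs, a log2 IP/input of -0.96 (SE 0.19, adjusted p = 0.0037). rps1202 (SPBC1685.02c), for eS12 of the beak of the subunit, was the only one above 0, at 0.59 (SE 0.28, adjusted p = 0.10), and did not pass the test. Its values are given with the contrast below. The nonamer-bearing rps1702 did not stand apart from the others, with a log2 IP/input of -1.96 (SE 0.23).

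The count of lower transcripts depended on the scaling: it was 44 on the values as deposited, 48 with totals equalised without rRNA, and 21 with totals equalised including rRNA. With the last, the median of all transcripts was 0.23 instead of -0.22. The calls over all transcripts were then 950 higher and 191 lower, instead of 1683 and 2092. They were 569 and 631 as deposited, and 1537 and 2340 without rRNA.

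**Figure D2:**
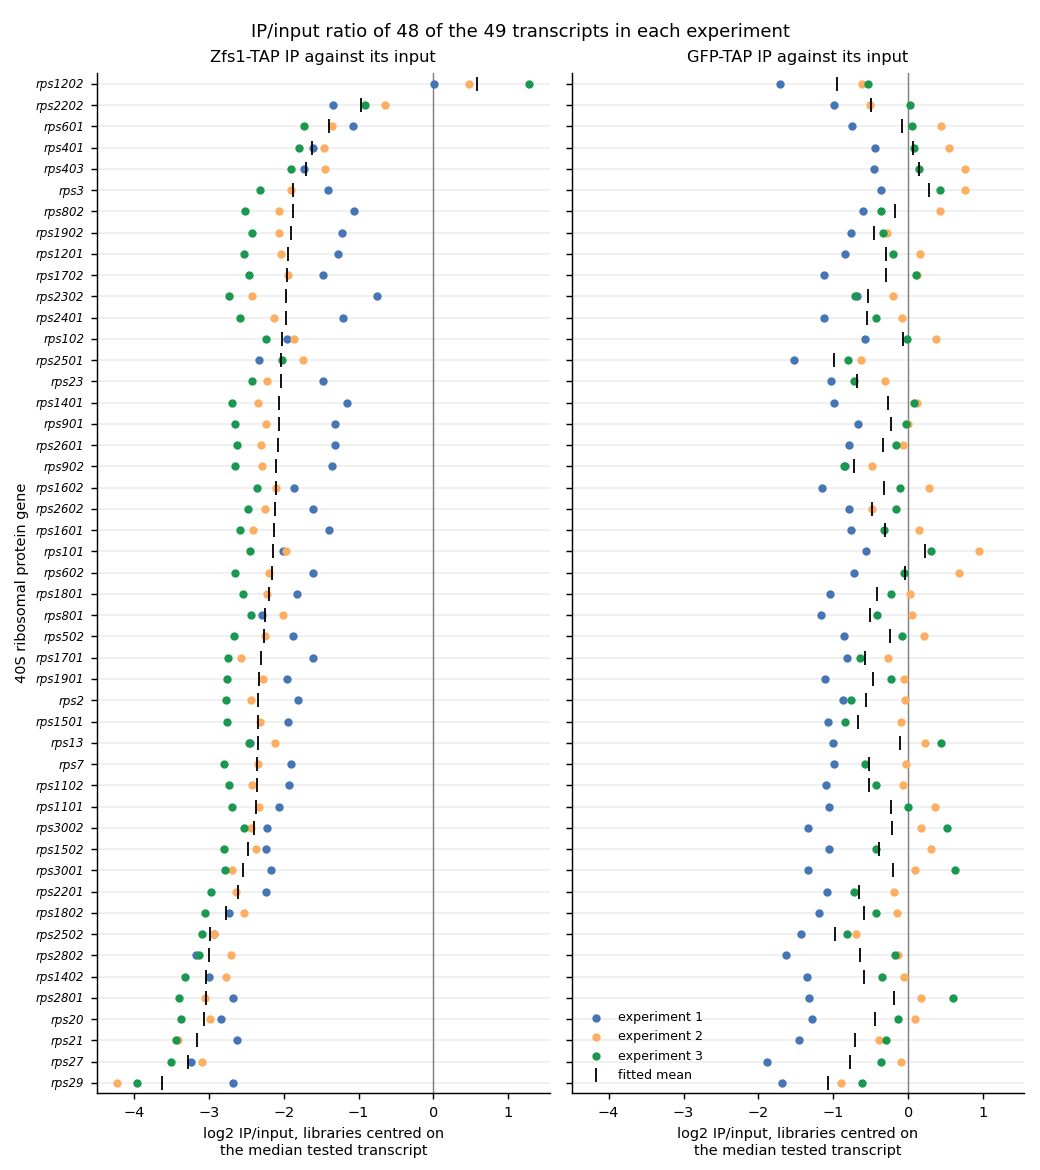
log2 IP/input of 48 of the 49 transcripts (rows, ordered by the Zfs1 IP) in the Zfs1-TAP strain (left) and in the GFP-TAP strain (right); points are experiments, the bar is the fitted mean, and libraries are centred on the median tested transcript. In the left panel every transcript drawn except rps1202 lies below 0 in all 3 experiments, whereas in the right panel the points of experiment 1 lie to the left of most others.

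The mock-control IP was compared with its input in the same way. Here 3 of the 49 were lower and 0 were higher, while 3.92% of 5887 transcripts tested were lower and 10.2% were higher. The median of the 49 was -0.44, with 45 below 0, against -0.05 for all transcripts. The experiments differed: the median was -1.03 in experiment 1, with all 49 below 0, 0.00 in experiment 2, with 24 below 0, and -0.23 in experiment 3, with 37 below 0. The large subunit genes had a median of -0.48 with 15 of 81 lower, and the maturation factors had a median of 0.26 with 1 lower and 5 higher.

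The transcripts lower in the GFP IP were rps29 and both genes for eS25, rps2501 and rps2502. rps29 had 866, 3269 and 2897 in the GFP IPs, against 3322, 4720 and 4431 in the inputs, a log2 IP/input of -1.06 (SE 0.24, adjusted p = 0.032). rps2501 (SPBC3D6.15) had 723, 2531 and 1932 in the IPs, against 2495, 3032 and 3356 in the inputs, a log2 IP/input of -0.98 (SE 0.23, adjusted p = 0.033). rps2502 (SPAC694.05c) had 1909, 5868 and 4706 in the IPs, against 6126, 7364 and 8259 in the inputs, a log2 IP/input of -0.98 (SE 0.22, adjusted p = 0.033). For all 3, the GFP IP of experiment 1 was the lowest of the 3 IPs.

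At the other end were rps3, for uS3 at the mRNA entry channel, rps101, for eS1, and rps403, for eS4. rps3 (SPBC16G5.14c) had 9715, 33824 and 21033 in the GFP IPs, against 14906, 15505 and 15643 in the inputs, a log2 IP/input of 0.27 (SE 0.31, adjusted p = 0.56). rps101 was at 0.23 (SE 0.33) and rps403 at 0.15 (SE 0.29), and neither passed the test. Their IP values lay on both sides of the inputs.

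These 3 calls did not hold under every choice. No transcript was lower when the experiment was left out of the model, when the variance was not allowed to follow the level, or without experiment 3. With totals equalised without rRNA, 27 were lower, and the calls over all transcripts were 208 higher and 883 lower instead of 602 and 231. They were 651 and 430 as deposited, and 174 and 313 with totals equalised. The median of all transcripts then moved to -0.47 without rRNA and -0.27 with equal totals.

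The direct contrast set the Zfs1 IP/input against the GFP IP/input. Of the 49, 47 were enriched less with Zfs1 than with GFP and 1, rps1202, was enriched more, while 26.6% of 5933 transcripts tested were lower and 20.3% were higher. The median difference of the 49 was -1.85, a fold of 0.278, against -0.10 over all transcripts. Values by experiment here match the strains by number, which the labels do not give as a shared day or batch. The median by experiment was -0.89, -2.36 and -2.33, with 48 of 49 below 0 each time. The large subunit genes had a median difference of -1.81 with 75 of 81 lower, and the maturation factors -0.64 with 17 of 37 lower and 2 higher.

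The lowest were rps2801, for eS28 at the mRNA exit channel, rps20, for uS10, and rps29. rps2801 (SPAC25G10.06) had 369, 567 and 433 in the Zfs1 IPs, against 5955, 3540 and 3834 in the Zfs1-TAP inputs. It had 775, 3041 and 3464 in the GFP IPs, against 2324, 2086 and 2284 in the GFP-TAP inputs. The difference was -2.87 (SE 0.47, adjusted p = 0.0014), the largest fall of the 49, and its experiments gave -1.36, -3.23 and -4.01. The differences of rps20 and rps29 were -2.64 (SE 0.38) and -2.57 (SE 0.44). For rps20 the experiments gave -1.57, -3.10 and -3.26, so that experiment 1 was again nearest to 0.

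The 3 highest were rps2501, rps2202 and rps1202. rps2501 differed by -1.06 (SE 0.29, adjusted p = 0.016). rps2202 differed by -0.48 (SE 0.31, 95% interval -1.19 to 0.23, adjusted p = 0.23), the only one of the 49 not called. It had 872, 1965 and 2290 in the GFP IPs, against 2071, 2180 and 2244 in the GFP-TAP inputs.

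**Figure D3:**
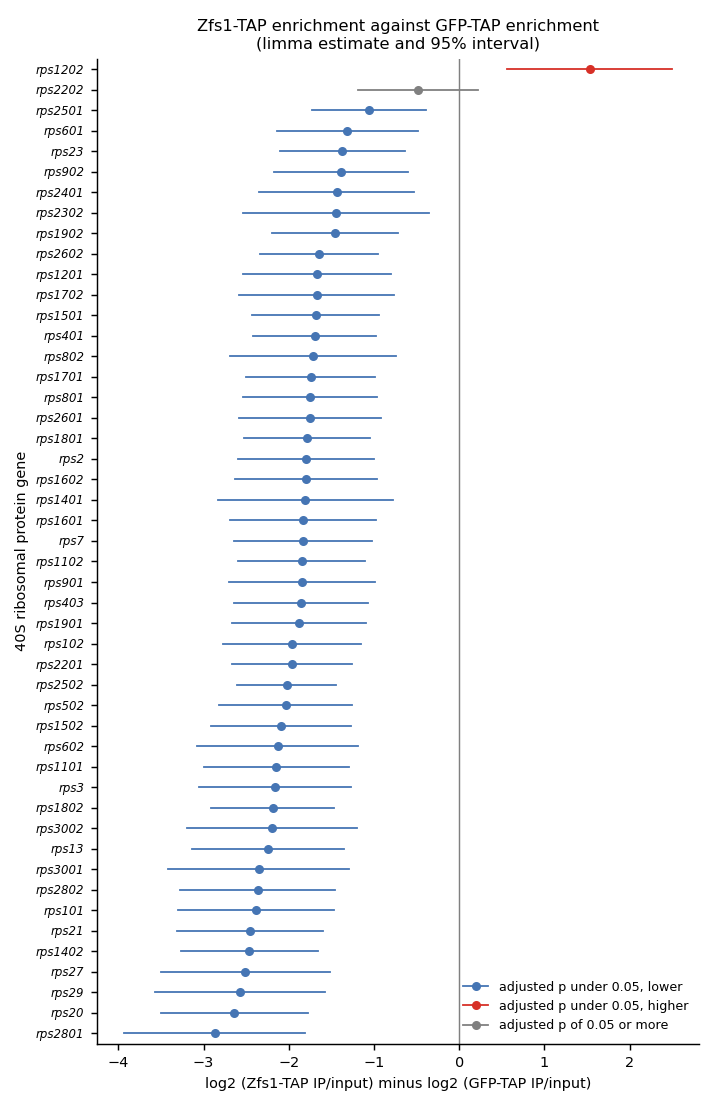
Difference between the log2 IP/input of Zfs1-TAP and that of GFP-TAP for 48 of the 49 transcripts (rows), with the limma estimate as a point and its 95% interval as a line; colour gives the call at an adjusted p of 0.05. Of the 48, 46 lie below 0 with intervals that exclude it, rps2202 spans 0, and rps1202 lies above 0 at 1.53.

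rps1202 had 6485, 14078 and 21317 in the Zfs1 IPs, against 16227, 7638 and 7380 in the Zfs1-TAP inputs. In the mock control it had 1607, 5679 and 4922 in the GFP IPs, against 6292, 6767 and 7100 in the GFP-TAP inputs. With libraries centred on their medians, its log2 IP/input for Zfs1 was 0.0089, 0.48 and 1.28 in experiments 1 to 3. For GFP it was -1.71, -0.62 and -0.53. The difference between the enrichments was 1.53 (SE 0.42, 95% interval 0.56 to 2.50, adjusted p = 0.017), with 1.71, 1.09 and 1.79 by experiment. Its GFP IP/input was -0.95 (SE 0.27, adjusted p = 0.055). The other eS12 gene, rps1201 (SPCC962.04), had 2093, 2363 and 1535 in the Zfs1 IPs, against 12790, 7346 and 7427 in the inputs, and differed between the strains by -1.67 (SE 0.38, adjusted p = 0.0069). The call for rps1202 was lost on the values as deposited (1.28, adjusted p = 0.23), with no experiment in the model (adjusted p = 0.093) and without experiment 3 (1.40, adjusted p = 0.063).

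The gene rps1202, at chromosome II, 498389 to 499044, on the minus strand, lies wholly inside the annotated transcript of pmp1, at 496533 to 499230 on the plus strand. pmp1 encodes a MAP kinase phosphatase. It had 930, 703 and 764 in the Zfs1 IPs, against 763, 181 and 158 in the inputs, a log2 IP/input of 1.73 (SE 0.19, adjusted p = 0.00028). In the contrast with GFP, pmp1 differed by 1.46 (SE 0.31, adjusted p = 0.0046). The pmp1 transcript holds 0 nonamers and 4 TATTTA cores. The opposite-strand transcripts around rps23 (ice2) and rps2602 (SPAC1805.10) were also higher in the Zfs1 IP, at 1.17 and 0.76. rps23 and rps2602 themselves were lower, at -2.04 and -2.11. In the contrast, ice2 (1.65) and pdp1 (2.61) were higher, while rps23 (-1.37) and rps902 (-1.38), inside them, were lower. However, pdp1 was not called in the Zfs1 IP itself (-0.68, adjusted p = 0.19 by limma). Its GFP IP/input was -3.30, also not called. rps1401, rps1601 and rps2802 were lower in the Zfs1 IP, as were the opposite-strand transcripts around them. The libraries were strand-specific, and any part of the pmp1 overlap in the values of rps1202 was not tested.

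For the contrast, 37 transcripts were lower as deposited, 45 with totals equalised without rRNA, and 4 with totals equalised including rRNA. The calls over all transcripts were 585 higher and 671 lower as deposited, 1016 and 103 with equal totals, and 1437 and 1189 without rRNA. In the main fit they were 1206 and 1580. Of the 49, 34 were lower without experiment 2 and 32 without experiment 3. The calls over all transcripts are not given for those fits.

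The inputs of both strains were compared to ask whether the transcripts differed before the IP. None of the 49 was called, neither higher nor lower, by limma over 5893 transcripts, of which 0.0848% were higher and 0.017% were lower. At an unadjusted p under 0.05 there was 1, rps3001 (0.28, SE 0.11), which encodes eS30. The median of the 49 was 0.18, with 44 above 0 and a range from -0.20 for rps902 to 0.54 for rps2801. The experiments gave medians of 0.14, 0.23 and 0.20. rps2801 had 5955, 3540 and 3834 in the Zfs1-TAP inputs, against 2324, 2086 and 2284 in the GFP-TAP inputs, and its 95% interval was -0.07 to 1.15. The ranges of the deposited values did not overlap, but the first value comes from the library with 72.1% rRNA.

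Without experiment 1, 24 of the 49 were higher and 1, rps902, was lower in the Zfs1-TAP inputs. The calls over all transcripts are not given for that fit, so these counts cannot be read as particular to the 49. In it rps2801 was at 0.72 (adjusted p = 0.015 by limma). With totals equalised including rRNA the median of the 49 turned to -0.26, and as deposited it was 0.60. The median of all transcripts moved to -0.44 and 0.42 in those settings, and the calls over all transcripts were 13 higher and 24 lower, and 6 and 4, instead of 5 and 1.

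Deletion of zfs1 was examined in total RNA. The zfs1 transcript itself had 6168 and 5866 in zfs1Δ, against 10098 and 10660 in WT. It was lower in both libraries labelled zfs1Δ but not at 0, and a value per transcript does not show from which part of the gene the reads came. Of the 49 genes, 39 could be tested, because 10 were listed at 0 in all 4 RNA-Seq libraries. In the inputs the same 10 had values of 1378 to 18007.

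The 10 transcripts listed at 0 were rps902, rps1101, rps1102, rps1202, rps1401, rps1601, rps23, rps2601, rps2602 and rps2802. They were the 10 of the 49 whose gene lies wholly inside an annotated opposite-strand transcript that is itself in the tables, and none of the other 39 does. Among all transcripts tested in the Zfs1 RIP-Seq and placed on the genome, 312 of 448 in such a position (69.6%) were listed at 0 in RNA-Seq, against 81 of 5406 others. rps1401 lies inside aar2, which had 2270 to 2500 in the RNA-Seq libraries, and rps2802 lies inside trs130, which had 4183 to 4755. rps20 overlaps an opposite-strand non-coding RNA over 459 of its 491 nt, and had 62.6 and 50.1 in zfs1Δ, against 52.8 and 60.7 in WT, while its Zfs1-TAP inputs had 15104 to 20818. The cause of the zeros was not tested, and these 10 have no zfs1Δ value here.

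Of the 39, 23 were lower in zfs1Δ and 0 were higher, while 27.8% of 5177 transcripts tested were lower and 26.3% were higher. The changes were small. The median log2 zfs1Δ/WT of the 39 was -0.11, a fold of 0.929, all 39 fitted values were below 0, and the range was -0.23 to -0.02. The median over all transcripts was -0.01. The median by experiment was -0.07, with 32 below 0, and -0.13, with all 39 below 0. The large subunit genes had a median of -0.10 with 47 of 69 lower and 0 higher. The maturation factors had a median of -0.04, with 10 of 36 lower and 7 higher. Fewer cells of one kind and less RNA per cell cannot be told apart in RNA from whole cultures.

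The lowest was rps2801, with 11953 and 10849 in zfs1Δ, against 12554 and 12931 in WT, a log2 difference of -0.23 (SE 0.03, adjusted p = 0.00034). rps13 (SPAC6F6.07c), for uS15, had 60556 and 57673 in zfs1Δ, against 62606 and 68290 in WT, at -0.21 (SE 0.03, adjusted p = 0.0011). rps2201 had 40960 and 40311 in zfs1Δ, against 43021 and 45686 in WT, at -0.19 (SE 0.03, adjusted p = 0.00047). In these 3 genes both zfs1Δ values were below both WT values. Among those nearest to 0 were rps29 at -0.02 and rps2502 at -0.03, neither of which passed the test. rps29 had 28430 and 26796 in zfs1Δ, against 26614 and 27029 in WT, so the groups overlapped. rps29, the lowest transcript in the Zfs1 IP, was thus among the least changed in zfs1Δ. Across the 39, the Zfs1 IP/input and the zfs1Δ/WT differences, which come from separate libraries, had a Pearson's r of 0.20 and a Spearman's rho of 0.25 across genes, given as a description.

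The count moved with the scaling. As deposited, 1 of the 39 was lower and 27 were below 0, and the calls over all transcripts were 1600 higher and 710 lower instead of 1360 and 1441. With totals equalised, 26 were lower, with 981 higher and 1606 lower over all transcripts. The count was 8 when the variance was not allowed to follow the level. The calls over all transcripts are not given for that fit, so the fall cannot be read as particular to the 39.

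**Figure D4:**
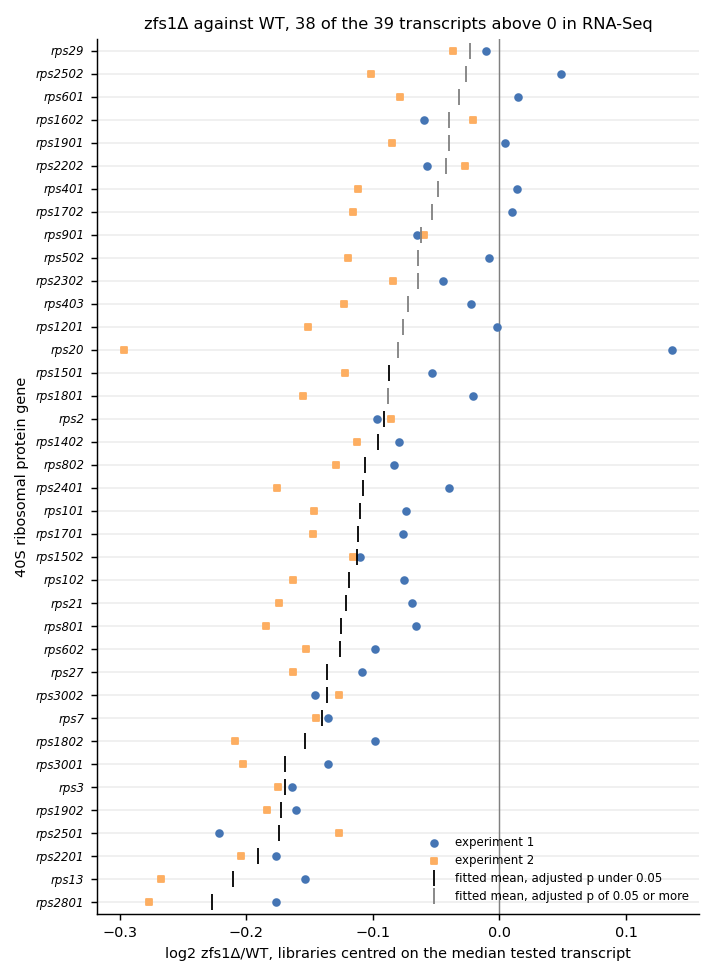
log2 zfs1Δ/WT of 38 of the 39 transcripts above 0 in RNA-Seq (rows), with libraries centred on the median tested transcript; points are the 2 experiments and bars the fitted means, black where the adjusted p is under 0.05. All fitted means lie between -0.23 and -0.02, and the points of experiment 2 lie mostly to the left of those of experiment 1.

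Of the 49 genes, 40 form 20 pairs that encode the same protein, and 9 have no second copy among the 49. The proteins of a pair were 81.1% to 100% identical, with 8 pairs identical throughout. Their coding sequences were 74.3% to 94.0% identical, with the rps12 pair the lowest in both. In 7 pairs the coding sequences shared at least 1 window of 100 bases, the read length, with at most 3 mismatches, the mismatch limit of the read mapping. Values of those pairs may be split between the copies by the read assignment and are uncertain.

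Copies of a pair had similar values in the Zfs1 IP. The median absolute difference in log2 IP/input within a pair was 0.14, against 0.43 over the 1156 other combinations of the 49. The closest were rps1101 and rps1102, for uS17, at -2.36 each, which differed by 0.0035 and shared no window. The widest were rps1201 and rps1202, at -1.95 and 0.59, which differed by 2.54 and shared no window. They were followed by rps2201 and rps2202, at -2.61 and -0.96, which differed by 1.65 although they encode identical proteins. In the 13 pairs without a shared window the median was 0.13, and in the 7 with one it was 0.36.

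In the GFP IP the median within a pair was 0.17, against 0.29 over other combinations, and the widest pair was again rps1201 and rps1202, at 0.66. In the contrast it was 0.41 within pairs and 0.40 otherwise. In the inputs it was 0.14 and 0.17. In zfs1Δ against WT, over 12 pairs with both copies tested, it was 0.05 within pairs and 0.05 otherwise, and rps2201 and rps2202 were the widest at 0.15. The gap between pairs and other combinations was widest in the Zfs1 IP/input ratios, where other combinations also differed most. In zfs1Δ against WT other combinations differed by only 0.05, which left little room for closer pairs. No test was made of this.

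**Figure D5:**
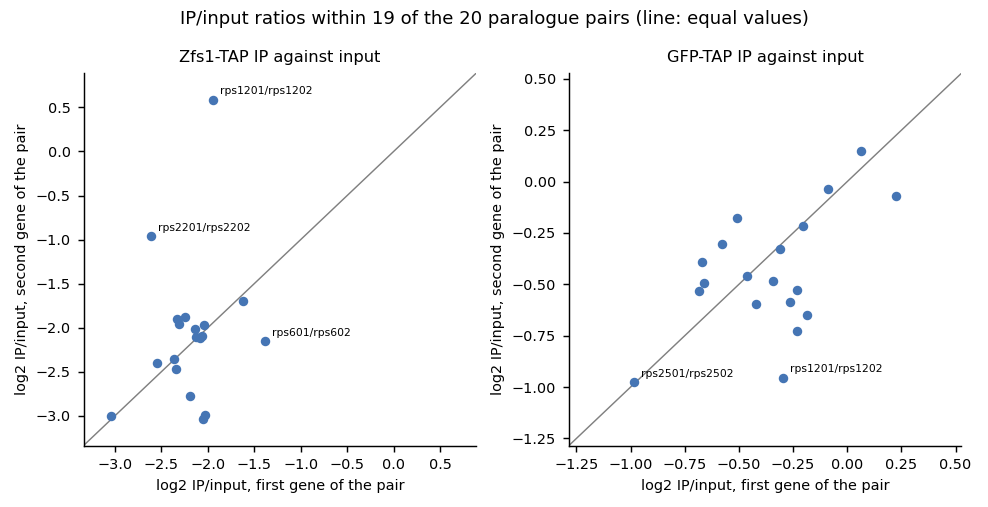
log2 IP/input of the second gene of 19 of the 20 pairs (vertical axis) against that of the first (horizontal axis), in the Zfs1-TAP strain (left) and the GFP-TAP strain (right), with the line of equal values. In the left panel rps1201/rps1202 lies 2.54 and rps2201/rps2202 lies 1.65 above the line, whereas in the right panel the widest pair differs by 0.66.

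The IP/input ratios of the 49 also varied with transcript length. The Pearson's r between log2 length and log2 IP/input was 0.46 (rho 0.48) for Zfs1 and 0.59 (rho 0.50) for GFP, over 49 transcripts measured in the same libraries. Over all protein-coding transcripts r was 0.30 for Zfs1 and 0.41 for GFP. For the contrast between the strains it was 0.18 over the 49. Over the 48 without rps1202, r was 0.60 for Zfs1, 0.61 for GFP and 0.27 for the contrast. Among the 49, r with the length of the coding sequence was 0.47 for Zfs1 (rho 0.45). With the length of the 5′UTR it was 0.24 (rho -0.0033), and with that of the 3′UTR 0.07 (rho 0.0052). Introns were annotated in 27 of the 49.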

How the data were processed

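RIP-Seq and RNA-Seq libraries were 100 bp paired-end and strand-specific (dUTP), after rRNA depletion. The authors mapped and counted reads with RSEM 1.1.19 and Bowtie 0.12.7 (at most 3 mismatches) on a PomBase annotation whose build name is not given in the sources used here, and normalised the counts with edgeR. The deposited values are normalised signal per transcript, not whole numbers, so depth is known only through their sums, no count model was applied, and no interval for counting error is given. The 2 tables were normalised separately and were not compared by test.

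Values were taken as log2(value + 1) for transcripts with a mean CPM of at least 1 in the libraries compared. Each library was centred on its median tested transcript. limma 3.58.1 (R 4.3.3) was fitted to all transcripts with a variance trend, with Benjamini-Hochberg adjustment and a threshold of 0.05. Fold changes on this scale understate changes of low transcripts. Experiment was a block within each strain for IP and input, which came from the same extract. For zfs1Δ against WT it was a block because the methods treat samples as paired. Deviations of same-numbered Zfs1 IP and input libraries correlated at 0.48, 0.23 and 0.37. The highest with another number was -0.31, 0.32 and 0.19, so in experiment 2 the same number was not the closest. For GFP the same number was the closest in each experiment. The comparison of inputs had no block. There, deviations of same-numbered libraries correlated at 0.66, 0.64 and 0.24, and a replicate block left 0 of the 49 called. The highest correlation with a library of another number was -0.29, 0.26 and 0.54, so in experiment 3 the same number was not the closest. Deviations of zfs1Δ and WT libraries correlated at -0.07.

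The members, gene lists, motifs and scaling were chosen with earlier results of these data known. All 49 members could be named. The members named are the 3 highest and 3 lowest in each comparison and the pairs furthest apart and closest, with values by library for part of them; 1 member, included in every count and median, is not reported here by name, nor drawn, and its pair is neither described nor drawn as a pair. Large subunit genes were taken by symbol (81). Of the maturation factors listed, 37 were found. Genome positions, transcripts and sequences are from RefSeq ASM294v3, in which 6843 of 7018 rows matched. Alternatives were other scalings, a pseudocount of 5, no filter on low values, no variance trend, other blocks and leaving out each replicate.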

Additional observations from a re-analysis of the deposited data

Results flagged for a closer look

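The enrichment of the 49 transcripts differed between the Zfs1-TAP and GFP-TAP strains by the test of the difference itself (limma contrast, n = 3 experiments each). It was lower with Zfs1 for 47 transcripts and higher for 1, where 26.6% and 20.3% of all transcripts tested were called in those directions. Among those described above, the log2 differences were -2.87 for rps2801, -2.64 for rps20, -2.57 for rps29, -1.67 for rps1201, -1.06 for rps2501 and 1.53 for rps1202. The strains differ in the tagged protein, promoter, mating type and auxotrophic background, and which of these the differences follow cannot be told apart.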

How the results depend on the processing

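Values for the 49 transcripts depended on how libraries were scaled and, with 2 or 3 experiments a group, on single libraries; the causes were not tested. With equal totals including rRNA, 21 were lower in the Zfs1 IP (median -1.74), 10 in the GFP IP and 4 in the contrast, and the median of the inputs turned to -0.26. In that setting rps403 in the GFP IP was at -0.071, rps2202 in the contrast at 0.20, and in the inputs rps101, rps2202, rps601 and rps602 were at -0.026, -0.27, -0.14 and -0.14. With equal totals without rRNA, 27 were lower in the GFP IP, with rps101, rps3 and rps403 at -0.19, -0.14 and -0.27, and the median of the inputs was 0.13. On the values as deposited, no transcript was higher in the contrast, 1 was lower in zfs1Δ with a median of -0.041 (-0.15 with equal totals), and the median of the inputs was 0.60. As deposited, rps2, rps2502 and rps902 in the inputs were at 0.27, 0.30 and 0.21, and rps2202, rps2502 and rps29 in zfs1Δ at 0.023, 0.038 and 0.041. Without a variance trend, 0 were lower in the GFP IP and 8 in zfs1Δ.

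Leaving out each replicate in turn gave 0 to 1 transcripts higher in the Zfs1 IP (rps1202 without replicate 1, at 0.88, adjusted p = 0.024 by limma) and 48 lower each time. It gave 0 to 5 lower in the GFP IP (0 without replicate 3, 5 without replicate 2), 32 to 47 lower and 0 to 1 higher in the contrast, 0 to 24 higher and 0 to 1 lower in the inputs, and 10 to 25 lower in zfs1Δ. For rps101 and rps403 in the GFP IP the range was -0.13 (without replicate 2) to 0.62, and -0.16 (without replicate 2) to 0.45. Without replicate 3, rps2 in the inputs was at 0.0034. For rps2502 in zfs1Δ it was -0.10 to 0.044, the highest without WT replicate 2. With no replicate block, 0 were lower in the GFP IP, 40 lower and 0 higher in the contrast, 48 lower in the Zfs1 IP and 21 lower in zfs1Δ. With a replicate block, 0 of the 49 were called in the inputs. A pseudocount of 5 and no filter on low values moved no count by over 1.5 times.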
